A study of Rattus norvegicus with 23 samples.

Results

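The genes described here encode the MHC class II molecule of the rat and the proteins that load it with peptide: RT1-Da, RT1-Db1, RT1-Ba, RT1-DMa, RT1-DMb, Cd74, Ciita and Ifi30, 8 genes in all. They were found by gene name among the 41012 probes of an Agilent rat array, which gave 9 probes of 5 genes. RT1-DMa and Ciita stand in the files under the older names Hla-dma and C2ta and were added through their RefSeq accessions, 1 probe each. RT1-DMb matched no probe and was not analysed here. Of the 11 probes, 10 passed the filter on dim signals, so 7 of the 8 genes could be tested among 20755 features.

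The samples were peripheral blood mononuclear cells, a mixture of lymphocytes and monocytes separated on a density gradient, from Wistar rat pups aged 21 days. Wistar is an outbred stock. Dams of the restricted (CR) group received a diet with 20% fewer calories throughout lactation, and dams of the control group ate the same standard chow freely. The pups were killed at weaning while fed freely. The series held 23 arrays, 1 for each pup: 5 CR males, 6 control males, 6 CR females and 6 control females. Each array set the pup's RNA in the Cy5 dye against a pool of all samples in Cy3, so each value below is a log2 ratio to that pool. A value of 0 is equal signal in both dyes after normalization. It need not be the level of the pool for every gene, as the group means of RT1-DMa were all above 0 (0.04 to 0.48). The labels count 5 CR dams and 11 control dams but do not tie pups to litters. Litter mates were therefore treated as independent, and p-values may be too small.

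Class II molecules present peptides from engulfed proteins to CD4+ T cells. In blood they are carried mainly by B cells, monocytes and dendritic cells. An alpha and a beta chain are assembled in the endoplasmic reticulum with the invariant chain, encoded by Cd74, which blocks the groove and directs the complex to endosomes. There, proteases cut the invariant chain down, and the DM molecule exchanges its last fragment for a peptide. Ciita is the coactivator that switches these genes on: it binds to no DNA itself and acts through the RFX, CREB and NF-Y proteins that sit on the conserved X and Y boxes of class II promoters.

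The promoters of 5 of the genes are shown because these boxes are what the class II chains and Cd74 are known to share. Each line gives 100 bases from the stretch upstream of the RefSeq transcript start, 5′ to 3′ on the gene's strand, on assembly GRCr8. The 4 RT1 lines run from 120 to 21 bases before the start and the Cd74 line from 235 to 136 bases before it, so the Cd74 line is not aligned with the others. Capitals mark matches on either strand to the Y box core CTGATTGG, to the X box core CCTAGNAAC, or to CCAAT, whose reverse complement lies within the Y box core. RT1-Da lies at chr20:4515295-4515394 (+), RT1-Db1 at chr20:4560183-4560282 (-), RT1-Ba at chr20:4576937-4577036 (+), RT1-DMa at chr20:4712356-4712455 (-) and Cd74 at chr18:56526971-56527070 (+).
RT1-Da: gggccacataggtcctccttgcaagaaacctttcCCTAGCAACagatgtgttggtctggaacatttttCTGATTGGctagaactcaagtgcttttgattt
RT1-Db1: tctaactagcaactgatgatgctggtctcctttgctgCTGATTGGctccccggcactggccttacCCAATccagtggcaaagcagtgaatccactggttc
RT1-Ba: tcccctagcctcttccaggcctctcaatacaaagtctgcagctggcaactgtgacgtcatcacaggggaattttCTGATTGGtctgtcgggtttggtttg
RT1-DMa: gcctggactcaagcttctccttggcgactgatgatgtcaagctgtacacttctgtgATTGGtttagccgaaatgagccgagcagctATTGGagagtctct
Cd74: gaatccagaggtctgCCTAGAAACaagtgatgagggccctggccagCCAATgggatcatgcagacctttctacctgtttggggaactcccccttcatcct

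RT1-Da held both cores, the X box core starting 86 bases and the Y box core 52 bases before the transcript start. RT1-Db1 and RT1-Ba held the Y box core, at 83 and 46 bases before the start. Cd74 held the X box core, 220 bases before the start, and 1 CCAAT. RT1-DMa held CCAAT at 2 places and neither longer core, and the Ifi30 promoter held none of the 3 motifs. For RT1-DMb and Ciita no promoter was used. Among the 33469 promoters of the table, 3.5% held the Y box core, 1.54% the X box core, 37.5% a CCAAT, and 13 promoters (0.0388%) held both cores. A match is a description of these letters and not a binding site. Only exact matches were sought, so a core that was not found does not mean that the promoter lacks the box.

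Between 20603 and 24076 probes an array were well above background in Cy5. No feature passed an adjusted p of 0.05 between CR and control pups in males, in females or on average over the sexes (limma, Benjamini-Hochberg over all features). At an unadjusted p under 0.05 there were 1492 features (7.19%) in males, 964 (4.64%) in females and 1525 (7.35%) when both sexes were averaged. CR male replicate 1 and CR female replicate 5 correlated least with the other arrays, and without them the mean differences below stayed between -0.57 and -0.14.

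All 7 measured genes had lower mean levels in CR pups than in control pups, in both sexes, and no single difference passed the test over all features. Among all features, 52.7% had a difference below 0 in males, 48.4% did in females and 49.1% when both sexes were averaged. In males the differences ran from -0.51 to -0.17 on the log2 scale with a median of -0.39, where the median of all features was -0.007. In females they ran from -0.62 to -0.09 with a median of -0.34, against 0.003 for all features. An unadjusted p under 0.05 with a lower level in CR pups was reached by 5 of the 7 genes in males, where 4.07% of all features did so. In females it was likewise reached by 5 of 7, against 2.65% of all features, and for the mean of the sexes by 7 of 7, against 4.86%. Counts passing at an adjusted p under 0.05 were 0 of 7 in each case, against 0% of all features. For none of the 7 genes did all CR pups lie below all control pups of their sex, as 0.251% of features did in males and 0.154% in females. The genes were measured in the same RNA and moved together across pups, so they do not count as 7 independent observations. In a bulk sample, fewer class II-bearing cells and less RNA in each such cell cannot be told apart.

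**Figure D1:**
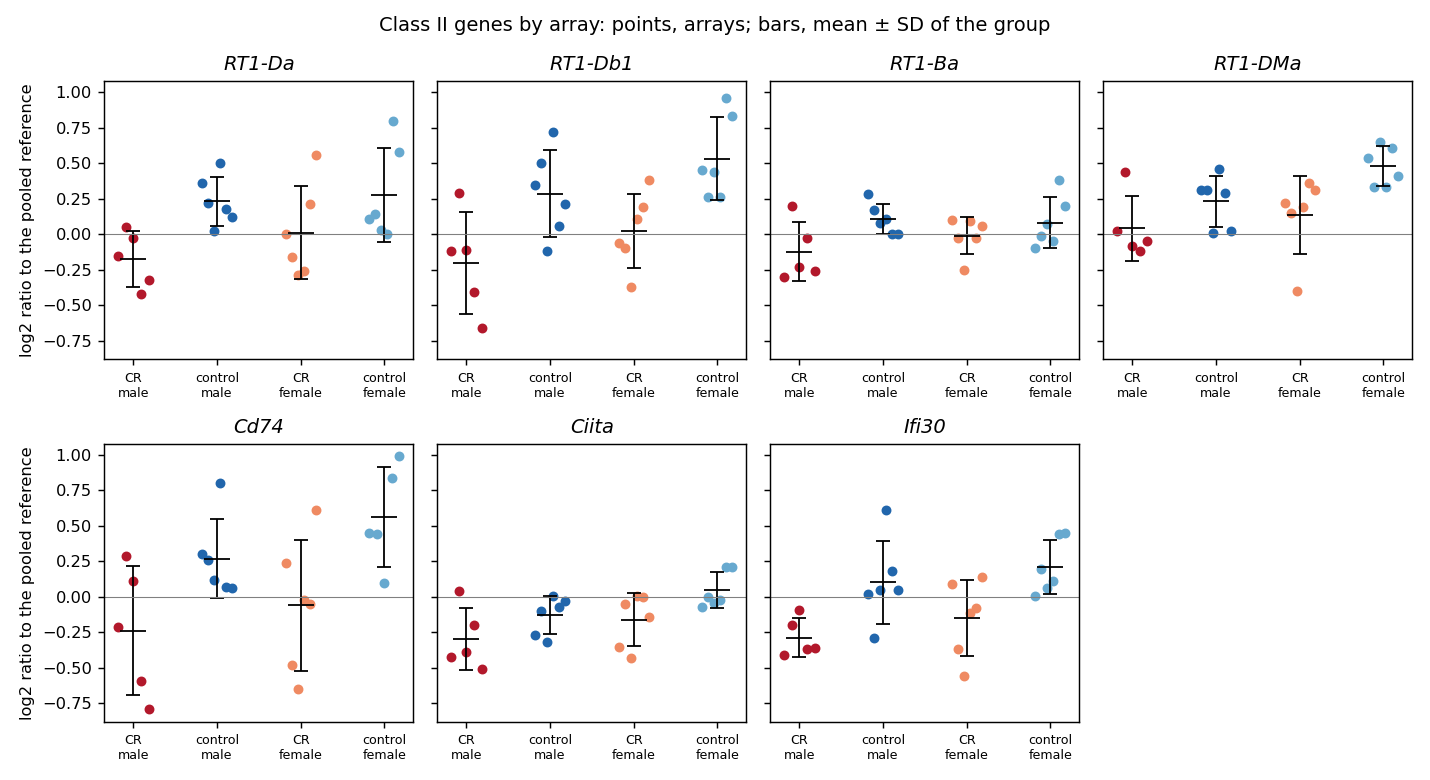
Log2 ratio to the pooled reference (vertical axis) of the 7 measured genes in CR males, control males, CR females and control females. Each point is 1 array, and bars give the group mean and SD; CR and control arrays overlap in every panel, as for Cd74, where the highest CR female, at 0.61, lies above 3 of the 5 control females.

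The classical chains were taken first. RT1-Da encodes the alpha chain of the rat class II D molecule, which corresponds to human HLA-DR. Its brighter probe, A_44_P991532, lies at chr20:4641104-4641163 of rn4, the build of the array design. In CR males RT1-Da stood at -0.15, 0.05, -0.03, -0.42 and -0.32, against a lowest value of 0.02, a median of 0.20 and a highest of 0.50 in control males. CR females ranged from -0.29 to 0.56 with a median of -0.08, and control females from 0.00 to 0.80 with a median of 0.13. In males only CR replicate 2 reached into the range of the control group. The difference, CR minus control, was -0.41 ± 0.15 (SE) in males, with an unadjusted p of 0.0152 and an adjusted p of 0.648, and -0.27 ± 0.15 in females, with an adjusted p of 0.995. The second RT1-Da probe, A_44_P367688 at chr20:4638704-4638763, gave -0.56 in males, -0.45 in females and -0.50 ± 0.12 over both sexes (adjusted p 0.424 with each probe fitted on its own).

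RT1-Db1 encodes the beta chain that pairs with it. Its brightest probe, A_44_P130513 at chr20:4672677-4672736, stood at -0.12, 0.29, -0.11, -0.41 and -0.66 in CR males, against -0.12 to 0.72 (median 0.28) in control males. CR females lay between -0.37 and 0.38 (median 0.02), and control females between 0.26 and 0.96 (median 0.45). CR female replicate 6 was the single CR female within the control range. The difference was -0.49 ± 0.17 (SE) in males, with an adjusted p of 0.636, and -0.51 ± 0.16 in females, with an adjusted p of 0.995. Over both sexes it was -0.50 ± 0.12, the smallest unadjusted p of the 7 genes (0.000349, adjusted 0.498). On the linear scale that is a ratio of 0.708.

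RT1-Ba encodes the alpha chain of the B molecule, the counterpart of human HLA-DQ. Its kept probe, A_44_P194167, has no position in the files. It was well above background on 2 of 5 CR male, 5 of 6 control male, 3 of 6 CR female and 6 of 6 control female arrays, so many of its values lie close to the floor of the assay. CR males stood at -0.30, 0.20, -0.23, -0.03 and -0.26, against 0.00 to 0.28 in control males. The differences were -0.23 ± 0.09 (SE, adjusted p 0.653) in males and -0.09 ± 0.09 (adjusted p 0.995) in females. The other RT1-Ba probe, A_44_P128248, was above background on 1 of the 23 arrays and was not tested.

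Cd74 encodes the invariant chain, which occupies the groove of new class II molecules. Its probe lies at chr18:56765468-56765527 of rn4. CR males stood at -0.21, 0.29, 0.11, -0.59 and -0.79, against 0.06 to 0.80 (median 0.19) in control males. CR females ran from -0.65 to 0.61 (median -0.04) and control females from 0.10 to 0.99 (median 0.45), with 5 control females because the spot of control female replicate 2 carried an outlier mark. The groups overlapped in both sexes, and CR males 4 and 5 and CR females 2 and 3 lay below every control pup of their sex by more than 0.5. The difference was -0.51 ± 0.22 (SE) in males and -0.62 ± 0.22 in females, with adjusted p of 0.675 and 0.995, and the mean of the sexes was -0.57 ± 0.16 (adjusted p 0.589).

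RT1-DMa encodes the alpha chain of the DM molecule, which exchanges peptides in endosomes. CR males stood at 0.02, 0.44, -0.08, -0.12 and -0.05, against 0.01 to 0.46 (median 0.30) in control males. In CR females it ran from -0.40 to 0.36 (median 0.21), against 0.33 to 0.65 (median 0.47) in control females. CR female replicate 5 was the single CR female inside the control range. The differences were -0.19 ± 0.12 (SE, adjusted p 0.775) in males and -0.34 ± 0.12 (adjusted p 0.995) in females. Without CR male replicate 2, which stood apart from the other CR males, the male difference was -0.29. Without control male replicate 4 it was -0.15, the other end of the fits without 1 array each.

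Ifi30 (chr16:19185132-19185191 of rn4) encodes GILT, a thiol reductase that opens disulfide bonds of proteins in endosomes before they are cut into peptides. CR males stood close together at -0.41, -0.20, -0.09, -0.37 and -0.36, and control males spread from -0.29 to 0.61 (median 0.05). CR females lay between -0.56 and 0.14 (median -0.09), against 0.01 to 0.45 (median 0.15) in control females. The difference was -0.39 ± 0.13 (SE, adjusted p 0.636) in males and -0.36 ± 0.13 (adjusted p 0.995) in females. Over both sexes it was -0.37 ± 0.09, with an unadjusted p of 0.000575 and an adjusted p of 0.519.

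Ciita, the coactivator gene, gave a dim signal (chr10:5087172-5087231 of rn4). CR males stood at -0.42, 0.04, -0.39, -0.20 and -0.51, against -0.32 to 0.01 (median -0.08) in control males. CR females ran from -0.43 to 0.01 (median -0.09), and control females from -0.07 to 0.21 (median -0.01). The differences were -0.17 ± 0.10 (SE, adjusted p 0.739) in males, -0.21 ± 0.09 (adjusted p 0.995) in females and -0.19 ± 0.07 (adjusted p 0.589) for their mean. An offset of 50 added to every intensity pulls the ratios of dim probes toward 0. On the scanner software's own ratio, which lacks that offset, the mean difference was -0.68 ± 0.18 for Ciita (adjusted p 0.387) and -1.04 ± 0.37 for RT1-Ba (adjusted p 0.536), so the size of these differences rests on the scale used.

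CR male replicate 2 was the highest CR male for 6 of 7 genes, the exception being Ifi30, where CR male replicate 3 was higher. Median centring in place of loess shifted the median of all features by -0.18 in males. It took the male differences to between -1.06 (Cd74) and -0.32 (RT1-Ba), with adjusted p from 0.0898 to 0.138. RT1-Da, RT1-Db1, RT1-DMa, Cd74 and Ifi30 shared the value 0.0898, a tie set by the adjustment over all features. Of all features 0 passed at 0.05 in males under this setting. Leaving CR male replicate 2 out took the male difference to -0.61 for RT1-Db1, to -0.64 for Cd74 and to -0.25 for Ciita. It also took the adjusted p of RT1-Db1 for the mean of the sexes to 0.0527. That was the lowest reached by leaving out any 1 array, and the highest was 0.868. Leaving out CR male replicate 5, the lowest CR male for these genes, moved the male difference the other way. It was then -0.38 for RT1-Db1, -0.37 for Cd74 and -0.12 for Ciita. Slides, read from the array barcodes, held pups of both diets on 4 of the 6 slides for males and on all 6 for females. Within slides, RT1-Db1 was lower in the CR pup on 4 of 4 slides in males (-0.87 to -0.00, the last being no real difference) and 6 of 6 in females (-0.81 to -0.15). Cd74 was lower on 3 of 4 slides in males (-0.86 to 0.04) and on 5 of 5 in females (-1.09 to -0.12). The remaining genes were lower on 3 or 4 of 4 slides in males and on 4 to 6 of 6 in females. RT1-Ba had the fewest in females (4 of 6, -0.41 to 0.20). Such counts were not made for all features. With slide as a block the mean differences of the 7 genes lay between -0.53 and -0.16, all with an adjusted p of 0.66.

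The diet difference in males did not differ detectably from that in females for any of the 7 genes. The interaction, male minus female, ran from -0.14 ± 0.21 (RT1-Da) to 0.15 ± 0.17 (RT1-DMa), with adjusted p between 0.94 and 0.995. An unadjusted p under 0.05 was reached by 0 of 7 genes and by 4.67% of all features, and an adjusted one by 0% of all features. The standard error of this contrast was 0.24 for RT1-Db1 and 0.31 for Cd74. A difference between the sexes would have to exceed its standard error by a wide margin to be resolved by these arrays. Averaged over diets, males stood below females for 7 of 7 genes, by -0.05 (RT1-Ba) to -0.24 (RT1-Db1 and Cd74). A difference below 0 was found for 50.7% of all features. In limma 0 of 7 passed the test over all features (adjusted p of 0.673 to 0.875), against 0.0578% of all features. Ciita alone had an unadjusted p under 0.05, at -0.16 ± 0.07 (SE), and 3.73% of all features did so on that side.

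Markers of B cells moved with these genes. Of 16 listed markers 10 were measured, and 10 of 10 were lower in CR males, 9 of 10 in CR females. Of all features 52.7% and 48.4% were. Their median difference was -0.39 in males and -0.31 in females, and 9 of 10 had an unadjusted p under 0.05 for the mean of the sexes, 0 with an adjusted p under 0.05. Ms4a1, which encodes CD20, stood at -0.52 ± 0.13 (SE, adjusted p 0.498). The mean over the 10 markers ranged from -0.56 to 0.11 in CR males, against -0.05 to 0.61 in control males, and from -0.26 to 0.24 in CR females, against 0.02 to 0.77 in control females. Cd79a, Pax5, Bank1, Fcrla, Spib and Pou2af1 matched no probe.

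**Figure D2:**
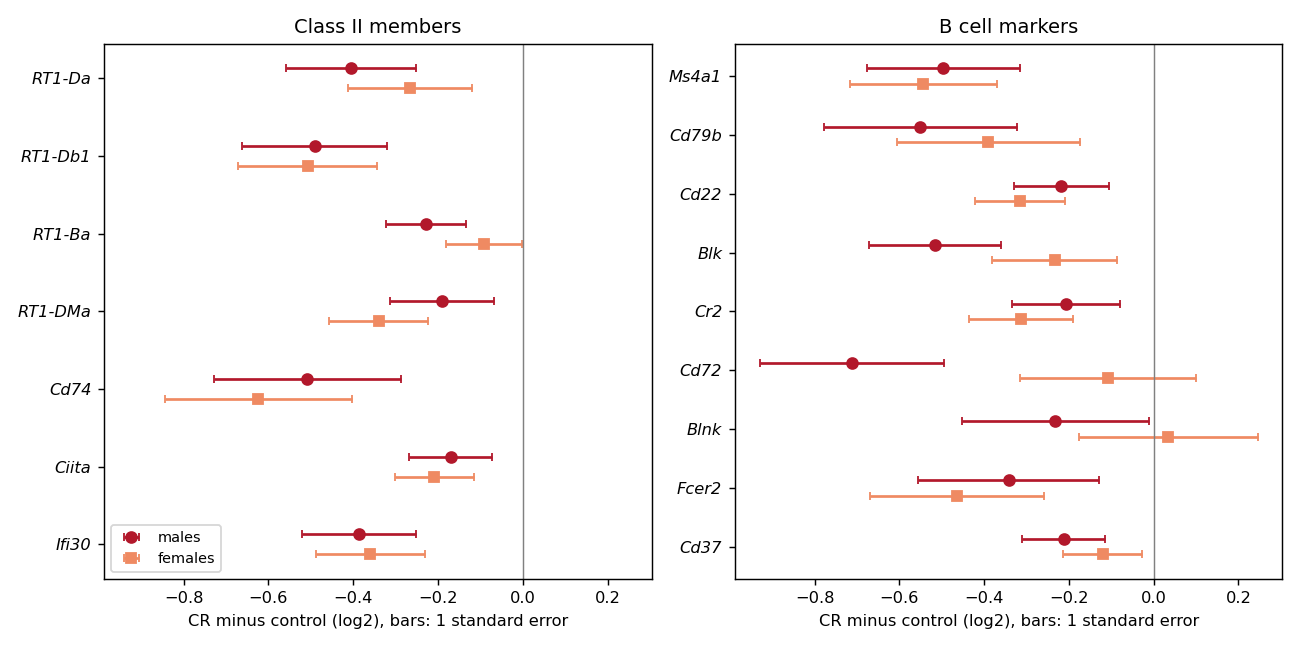
CR minus control on the log2 scale (horizontal axis) for the 7 class II genes (left) and 9 of the 10 measured B cell markers (right), in males (circles) and females (squares), with bars of 1 standard error. The class II genes lie between -0.62 and -0.09, and all B cell markers shown but Blnk in females lie below 0.

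When the mean of the B cell markers entered the model as a covariate, the male differences shrank to between -0.12 (Ifi30) and 0.02 (Cd74). In females they lay between -0.24 (RT1-DMa) and 0.01 (RT1-Ba). For the mean of the sexes Cd74 went to -0.09 ± 0.11 (SE), RT1-Da to -0.08 ± 0.10, RT1-Db1 to -0.15 ± 0.09, RT1-DMa to -0.15 ± 0.10 and Ifi30 to -0.14 ± 0.09, all with an adjusted p of 0.9998. The same covariate built from 11 of 12 monocyte markers left the means of the sexes near the first values, at -0.56 ± 0.16 for Cd74 and -0.49 ± 0.12 for RT1-Db1. By sex it moved RT1-DMa. The male difference of RT1-DMa went from -0.19 to -0.27, and its male minus female difference from 0.15 to -0.06. Its female difference was thus smaller with the monocyte covariate than without it. The monocyte markers were lower for 1 of 11 in CR males and for 10 of 11 in CR females. Averaged over both sexes, 5 of the 11 stood lower in CR pups and 6 higher, with a median difference of 0.009. A covariate with so little diet difference on that average could hardly shrink the class II differences averaged over the sexes. The B cell markers had a median of -0.39 on the same average, so a covariate built from them could. Which cell type the class II differences come from was not tested. The dendritic cell list had 5 of 12 markers measured, with 3 of 5 lower in each sex, while Flt3, Clec9a, Itgax, Irf8 and Fscn1 matched no probe. Natural killer markers were higher in CR males for 8 of 8 and in CR females for 4 of 8. Of 9 neutrophil markers 5 were measured, and they were higher for 5 of 5 in CR males and for 4 of 5 in CR females, with 0 past an adjusted p of 0.05 in either sex. Their mean log2 ratio was 0.08 in CR males and -0.25 in control males, and 0.21 in CR females and -0.06 in control females. Of 9 red cell markers 7 were measured, higher for 7 of 7 in CR males, where their mean log2 ratio was -0.37, against -1.17 in control males. They were lower for 7 of 7 in CR females, with a mean of -0.53, against -0.19 in control females, and 0 of 7 passed the adjusted p in either sex. Of all features, 52.7% were lower in CR males and 48.4% in CR females, and markers of 1 list are not independent observations. The part of the neutrophil and red cell markers in the class II differences was not tested. B cells are known to express class II genes themselves.

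Across the 23 arrays, with group means subtracted, the 7 genes varied together. Pearson's r over the 21 pairs ran from 0.40 to 0.87 with a median of 0.60, and 16 of 21 pairs had an adjusted permutation p under 0.05 over the 77 relations computed. RT1-Db1 and Cd74 were the closest pair (r = 0.87, rho = 0.86, adjusted permutation p 0.00038 for each; r = 0.88 with slide means also subtracted and 0.83 without the 2 arrays farthest from the median). RT1-Da followed RT1-Db1 (r = 0.82, rho = 0.81) and Cd74 (r = 0.83, rho = 0.80). Ciita was tied less closely to Cd74 (r = 0.44, rho = 0.41, adjusted permutation p 0.17 and 0.2) than to RT1-Db1 (r = 0.68, rho = 0.63, 0.0071 and 0.017), a contrast between the correlations that was not tested.

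With the mean of the B cell markers, Cd74 had r = 0.85 and rho = 0.85 (adjusted permutation p 0.00077 and 0.00062), and r = 0.85 without the 2 farthest arrays. RT1-Db1 had r = 0.81 and rho = 0.86 (0.0014 and 0.00038). RT1-DMa was the loosest, with r = 0.38 and rho = 0.39 (0.19 and 0.17), and r = 0.17 without the 2 farthest arrays. With the monocyte mean the 7 values of r ran from -0.07 to 0.64 with a median of 0.20. The highest was that of RT1-DMa, with rho = 0.51 (adjusted permutation p 0.028 and 0.056), and r = 0.38 without the 2 farthest arrays. With the T cell mean they ran from -0.72 to -0.14. All levels on an array are ratios of the same RNA, so values of different cell types are not independent of each other.

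**Figure D3:**
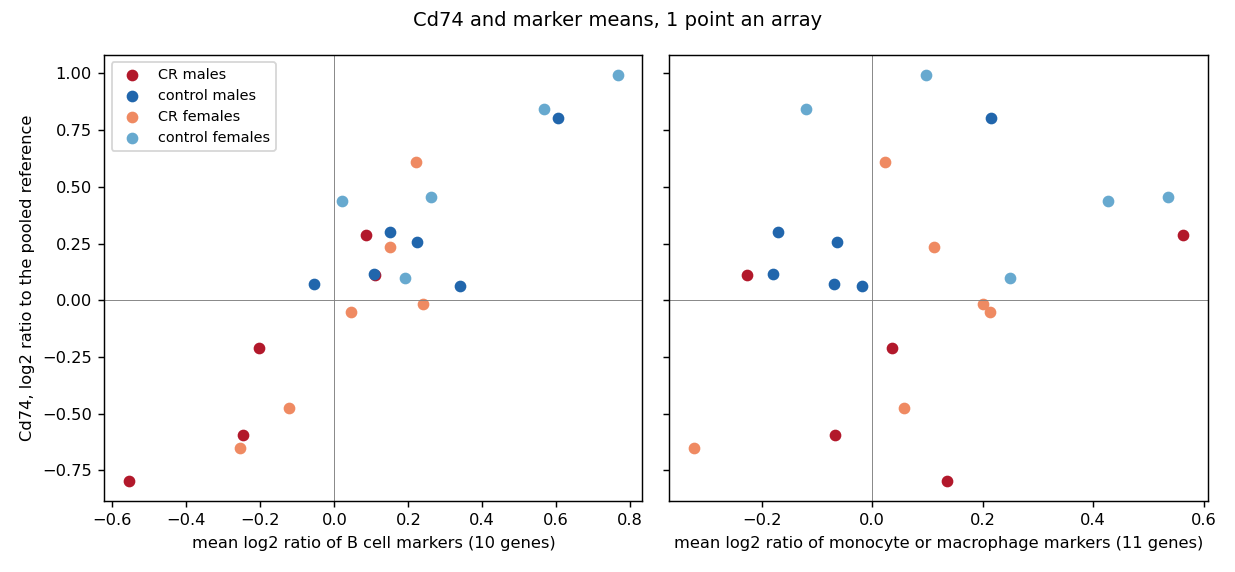
Cd74 (vertical axis, log2 ratio to the pooled reference) against the mean log2 ratio of 10 B cell markers (left) and of 11 monocyte or macrophage markers (right), 1 point an array, coloured by group. On the left the points climb together, and CR male replicate 5 is lowest on both axes (Cd74 at -0.79, markers at -0.56).

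The features most like the class II genes were ranked by r with the mean of RT1-Da, RT1-Db1, RT1-Ba, RT1-DMa and Cd74 over the 23 arrays, group means subtracted. The 10 highest with a gene name were Fcmr (0.87), Ms4a1 (0.86), Ctsh (0.84), Fcer2, Pacc1 and Rpl10a-ps1 (0.82 each), Cd22 (0.81), Daglb (0.80), Plcg2 and Cnr2 (0.77 each). Fcmr encodes the receptor for IgM, Fcer2 the low-affinity IgE receptor CD23, Cd22 an inhibitory receptor of B cells, and Ctsh a lysosomal protease. Ciita was most like Fut4 (0.81), Coq2 (0.80) and Fdps (0.79). Ifi30 was most like Cib1, Chst10 (0.87 each) and Lyn (0.83), Lyn being a kinase of B cell and myeloid receptors.

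The class II chains outside the 8 genes were RT1-Bb, RT1-DOa and RT1-DOb, 3 of 5 listed. RT1-DOa and RT1-DOb encode the DO molecule, an inhibitor of DM found mostly in B cells. RT1-DOa stood at -0.27 ± 0.11 (SE) and RT1-DOb at -0.41 ± 0.18 for the mean of the sexes, with adjusted p of 0.589 and 0.647. RT1-Bb, the beta partner of RT1-Ba, had 2 probes that disagreed in size, at -1.89 ± 0.83 (adjusted p 0.645) and -0.30 ± 0.12 (adjusted p 0.609), each probe fitted on its own.

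Of the endosomal proteases and their inhibitor, 10 of 10 were measured, and 5 were lower and 5 higher for the mean of the sexes. Ctsz (-0.33 ± 0.10, SE, adjusted p 0.589) and Ctsh (-0.32 ± 0.11, adjusted p 0.589) had an unadjusted p under 0.05, and Ctss, the protease that makes the last cuts in the invariant chain of B cells and dendritic cells in mice, stood at -0.08 ± 0.07 (adjusted p 0.863). All 8 listed regulators were measured, 5 lower and 3 higher, with a median of -0.007. Nfyb, a subunit of the Y box factor NF-Y, stood at 0.14 ± 0.06 (adjusted p 0.657), while Rfxank and Rfx5, subunits of the X box factor RFX, stood at -0.07 ± 0.05 and -0.05 ± 0.04 (adjusted p 0.814 and 0.851).

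Among 7 interferon gamma signalling genes, which act upstream of Ciita in many cells, 2 were lower and 5 higher, with a median of 0.01 and no unadjusted p under 0.05. Those with the smallest p were Irf1 (-0.12 ± 0.09, adjusted p 0.841), Jak1 (0.17 ± 0.14, adjusted p 0.853) and Ifngr2 (-0.08 ± 0.08, adjusted p 0.896). Of 6 measured genes of class II turnover, costimulation and its ligands, 4 were lower and 2 higher. Cd40, a receptor by which T cells activate B cells, stood at -0.43 ± 0.13 (adjusted p 0.589). Marchf1, the ligase that removes class II from the surface, was at -0.11 ± 0.06 and Marchf8 at 0.15 ± 0.10 (adjusted p 0.776 and 0.813). Neighbours that lie among the class II genes but take no part in the molecule were also set beside them, and 5 of 5 measured were lower. Tap2, a peptide transporter for class I, was at -0.68 ± 0.20 (adjusted p 0.589). Its probe lay at 0.75 or above on 5 arrays, all of control pups (males 1 and 5, females 1, 3 and 6). On the other 18 arrays it lay at 0.30 or below, and what sets these levels was not tested. Tap1 and Brd2 were at -0.10 ± 0.07 and -0.12 ± 0.09 (adjusted p 0.840 and 0.841). None of these genes passed the test over all features.

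The probes of 1 chain did not all tell the same story. Class II chains are known to differ in sequence between haplotypes, and outbred rats can carry several. The RT1-Db1 probes A_44_P130513 and A_44_P130516 (chr20:4673410-4673469) stayed within -0.10 to 0.28 of each other on every array. The third, A_44_P139882 at chr20:4677050-4677109, did not: it lay between -0.88 and -0.56 on 7 arrays and between -0.06 and 0.87 on the other 16. Another probe, A_43_P16181 at chr20:4676854-4676912, is described in the files as an RT1-D beta 1 chain of haplotype k. It was split far more widely, lying between -2.70 and -2.38 on 7 arrays and between -0.19 and 1.02 on 16. A_44_P158837 at chr20:4734503-4734562, with no gene name but described as a class II antigen, lay between -2.60 and -2.16 on 7 arrays and between -0.27 and 0.99 on 16.

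The 7 low arrays were the same for all 3 probes: CR male 2, control males 1, 3 and 5, CR females 1 and 4, and control female 5. That is 3 of 11 CR pups and 4 of 12 control pups. RT1-Bb probe A_44_P552452 at chr20:4730533-4730583 split the pups at another place. It lay between -4.58 and -3.41 on 6 arrays, none of them among the 7, and between -0.45 and 1.93 on the other 17. Those 6 were CR males 1 and 5, control male 6 and CR females 2, 3 and 5, which is 5 of 11 CR pups and 1 of 12 control pups.

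The pups thus fell into 3 patterns, of 7, 6 and 10 arrays. On the 7 arrays low for A_43_P16181, the RT1-Bb probe stood 1.15 to 1.63 above the other RT1-Bb probe, A_44_P500803. On the 6 arrays low for RT1-Bb it stood -4.91 to -3.74 relative to that probe, and A_43_P16181 stood 0.45 to 0.92 above the brightest RT1-Db1 probe. On the remaining 10 arrays these differences ran from -0.21 to 0.32 and from -0.49 to 0.22. Splits of this size were rare on the array: of 23693 kept probes, 22 (0.0929%) had a gap of at least 1 with at least 3 arrays on either side. A_44_P552452 had the second widest gap of all (2.96), A_43_P16181 the fourth (2.19) and A_44_P158837 the seventh (1.89). Haplotypes were not typed, and what sets the levels of these probes was not tested.

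**Figure D4:**
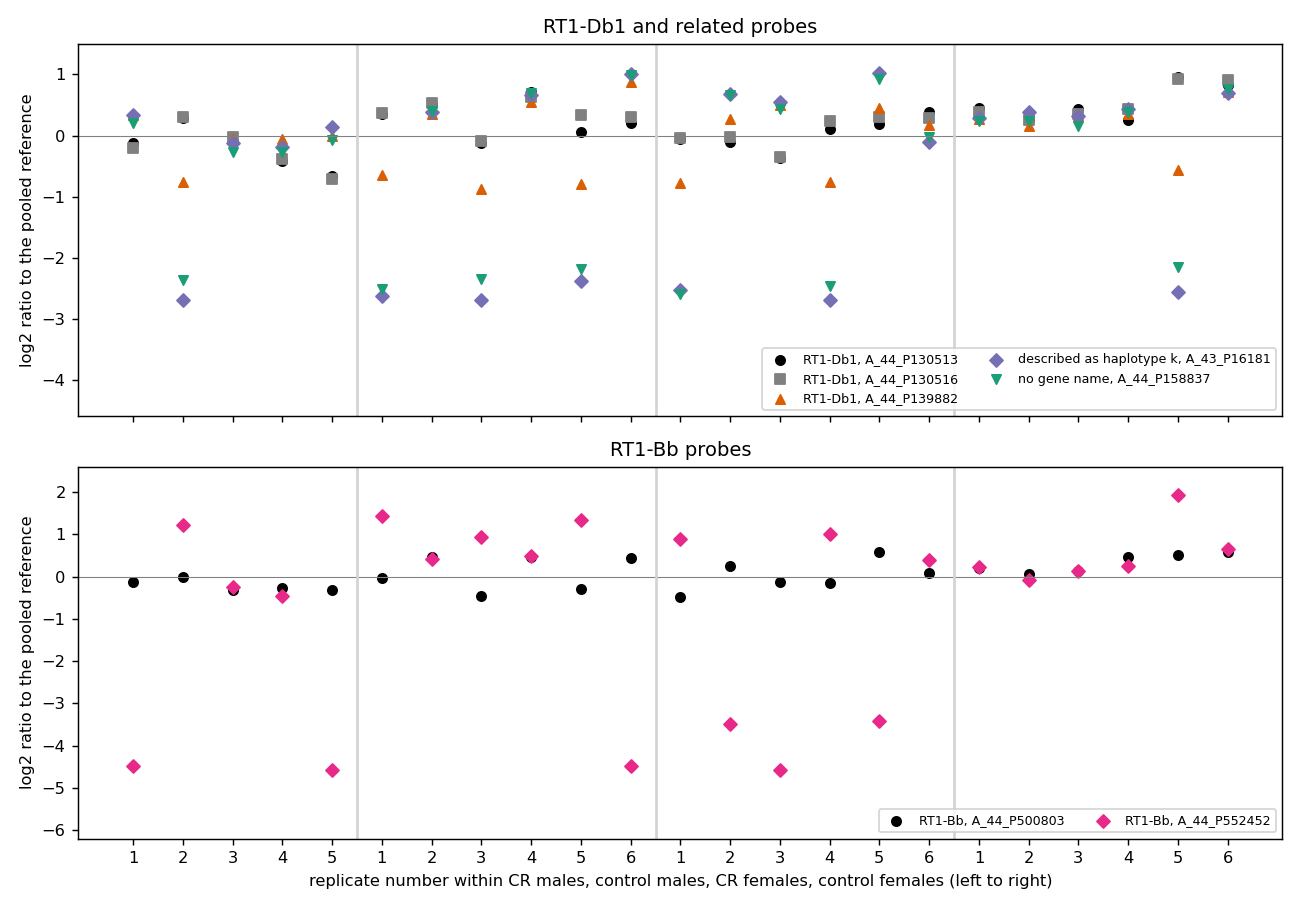
Log2 ratio to the pooled reference (vertical axis) of 5 probes of RT1-Db1 and related sequences (top) and of 2 RT1-Bb probes (bottom) on each of the 23 arrays, in the order CR males, control males, CR females and control females. Black and grey points stay between -0.71 and 0.96, whereas coloured points drop on 7 arrays in the upper panel and on 6 other arrays in the lower one.

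These split probes bear on the diet comparison in 2 ways. The low RT1-Db1 probe gave -0.13 ± 0.22 (SE) for the mean of the sexes, against -0.50 ± 0.12 and -0.52 ± 0.12 for the other RT1-Db1 probes. With A_43_P16181 as a covariate the differences of the 7 genes were nearly the same as without it, at -0.50 ± 0.12 for RT1-Db1 and -0.56 ± 0.16 for Cd74. With the RT1-Bb probe A_44_P552452 as a covariate they were smaller, at -0.39 ± 0.12 for RT1-Db1, -0.36 ± 0.14 for Cd74, -0.28 ± 0.09 for Ifi30 and -0.07 ± 0.06 for RT1-Ba. Both covariates were chosen after the values were seen. The RT1-Bb pattern was unevenly spread over the diets, and with litters unlabelled, diet and family cannot be told apart for it.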

How the data were processed

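Two-colour Agilent arrays (23) were read with Agilent Feature Extraction 10.5.1.1, as the submitters' processing notes and the headers say. The deposited scanner files hold raw intensity per spot and channel, per the file headers. They also hold a deposited log10 ratio (Cy5 to Cy3) that the scanner software had corrected for background and dye, per the file headers, and other columns with spot marks such as outlier or above background, per the file headers. A further table deposited by the authors gives log2 levels. How it was made is not given in the sources used here, and it served as an alternative.

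Intensities were corrected with limma 3.58.1 in R 4.3.3 (normexp, offset 50, loess within arrays, control spots without weight, outlier spots missing). Probes well above background in Cy5 on at least 50% of the arrays of 1 group were kept (23693 of 41012). Each gene took its brightest kept probe, giving 20755 features. limma was fitted to the 4 group means, with Benjamini-Hochberg adjustment over all features. Gene names came through RefSeq (GRCr8), and sequences are RefSeq's. Correlations used 100000 permutations within groups (two-sided). The fit was tested on simulated data with 100 changed features, for the mean of the sexes. It recovered 95% of them at a change of 0.5 and 98% at a change of 1, with 12 false calls each time. These rates need not hold for the class II genes. For the mean of the sexes, the standard errors of RT1-Db1 (0.12) and Cd74 (0.16) lay above the median of all features (0.0569). RT1-Db1 at -0.50 and Cd74 at -0.57 were not called in limma (adjusted p 0.498 and 0.589). Alternatives were 17 settings and 23 fits without 1 array each.

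Named were every gene of the group with all its probes, the 3 smallest p of each pathway list, and the most similar features. Of the B cell markers, 1 is not reported here by name. The genes and lists were chosen with earlier results of these data known. Precision is limited by the number of arrays. The median standard error of a log2 difference was 0.0823 (males), 0.0785 (females) and 0.0569 (mean of the sexes).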

Additional observations from a re-analysis of the deposited data

Results flagged for a closer look

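Single arrays stood apart from the rest of their group in 3 of 40 combinations of a probe and a group, where chance gives about 1 in 20. Cd74 stood at 0.80 in control male replicate 4, against 0.06 to 0.30 in the other control males. RT1-DMa stood at 0.44 in CR male replicate 2, against -0.12 to 0.02 in the other CR males. RT1-DMa stood at -0.40 in CR female replicate 3, against 0.15 to 0.36 in the other CR females.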

How the results depend on the processing

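No class II gene passed an adjusted p of 0.05 in any contrast under any of the 17 settings or without any 1 array. Over all features, 0 passed in males and for the mean of the sexes; with the replicate number as a block (replicate block) 1 passed in males, and with array quality weights 2 passed for the mean of the sexes. Leaving out 1 array gave 0 to 4 in males (4 without CR male replicate 2) and 0 to 3 for the mean of the sexes (3 without CR male replicate 2, 1 without CR female replicate 1). CR and control pups of the same number correlated at 0.03 to 0.20 in males and -0.24 to 0.33 in females. In females such pups always shared a slide, and in males they never did. These correlations cannot decide whether the numbers pair the pups in another way. All 280 results for the mean of the sexes kept their sign. In males Cd74 turned to 0.0162 with the B cell covariate. In females RT1-Ba turned to 0.0129 with the B cell and 0.00969 with the RT1-Bb covariate, and between the sexes RT1-Da and RT1-Ba turned to 0.00872 and 0.0112 with the B cell covariate. The remaining turns of sign were in the difference of the male and female diet effects. Median centring, which shifted the median of all features by -0.179 in males and by -0.151 in this difference, gave -0.483 (RT1-Db1), -0.308 (RT1-DMa), -0.462 (Cd74) and -0.0254 (Ciita). RT1-Db1 turned to -0.00328 with the scanner software's ratio, -0.0181 with scale normalization, -0.046 with array quality weights, -0.0851 with the monocyte and -0.00259 with the RT1-Bb covariate. Ciita turned to -0.106 with the scanner software's ratio, -0.0135 in the deposited table, -0.0326 with slide as a block and -0.0558 with the monocyte covariate. Cd74 turned to -0.0267 with Cy5 alone, and RT1-DMa to -0.012 with scale normalization and -0.0587 with the monocyte covariate. Ifi30 turned to 0.188 with scale normalization, 0.00403 with the replicate block, 0.0473 with array quality weights, 0.0369 with the B cell covariate, 0.0185 without the 2 arrays that correlate least and 0.00515 with A_43_P16181. Without 1 array each, this difference ranged from -0.106 to 0.131 (RT1-Db1), -0.0169 to 0.254 (Cd74), -0.0451 to 0.092 (Ciita) and -0.11 to 0.0747 (Ifi30). The cause was not tested.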
